A study of Homo sapiens with 6 samples.

Results

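The amino acid transporters described here are 10 genes of 60671 in the expression table, chosen by symbol: the heavy chain SLC3A2, the SLC7 carriers SLC7A1, SLC7A5, SLC7A6 and SLC7A11, the SLC1 carriers SLC1A3, SLC1A4 and SLC1A5, and the SLC38 carriers SLC38A1 and SLC38A2. RNA came from U87, an established human glioblastoma cell line grown as a bulk culture. It was sequenced from 3 libraries of cells exposed for 48 h to 100 μM rutaecarpine, a plant alkaloid that activates the aryl hydrocarbon receptor (AhR), and from 3 libraries of control cells that received the solvent alone, 0.1% DMSO. Rutaecarpine was dissolved in DMSO and diluted in medium without serum, so both groups carried DMSO. The study asked which migration-related genes respond to rutaecarpine, and it listed 3 of the 10 members, SLC3A2, SLC7A5 and SLC7A11, as such genes from these same samples. Nothing in the labels says whether the 3 libraries of a group came from separate cultures, so the p values measure the spread between libraries only.

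Amino acids cross the plasma membrane through carriers that differ in their substrates and in what drives them. SLC3A2 (also called 4F2hc or CD98) carries no amino acid by itself. It is a heavy chain that brings light chains of the SLC7 family, among them SLC7A5, SLC7A6 and SLC7A11, to the cell surface through a disulfide bond. Many of these carriers are exchangers, so glutamine taken up by sodium-coupled carriers such as SLC1A5, SLC38A1 and SLC38A2 can be traded for leucine through SLC7A5, and glutamate can be traded for cystine through SLC7A11. Several of the genes are known targets of ATF4, the transcription factor of the amino acid response, and SLC7A11 is also a known target of NFE2L2 (NRF2). In glioma, SLC7A11 is known for glutamate release and SLC1A3 for the glutamate uptake that is typical of astrocytes.

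Levels are in TPM, which the authors computed with RSEM by dividing the reads assigned to each gene by transcript length and scaling every library to the same total. Levels of different genes can therefore be set side by side, but the number of reads is unknown. Trends on GC content and length that differ between libraries, given below, also affect such comparisons. In bulk RNA, a change in the share of cells that express a gene and a change in its RNA per cell cannot be told apart. Groups were compared with limma on log2(TPM + 1) over the 14377 genes that reached 1 TPM in 3 or more libraries, and p values were adjusted over all of them by the Benjamini-Hochberg method. A gene is said to have risen or fallen where the adjusted p was at most 0.05. The added 1 understates the change of weakly expressed genes. All 10 members passed the filter. The line markers VIM and CD44 were abundant in all libraries, at no less than 4430 and 415 TPM, although VIM, FN1 and NES fell after rutaecarpine. Of the glial markers SOX2, AQP4 and S100B were at or near 0, GFAP was at 3.48 to 5.41 TPM, and OLIG2 rose from 1.48 to 1.73 TPM in the controls to 3.07 to 4.11 TPM after rutaecarpine. PTPRC, PECAM1, EPCAM and RBFOX3, which mark leukocytes, endothelium, epithelium and neurons, reached at most 1.33 TPM, while CD68, a macrophage marker, was at 452 to 511 TPM in the controls and fell to 319 to 357 TPM. The part of these markers in the results below was not tested.

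Of the 10 transporters 5 rose after rutaecarpine, namely SLC7A11, SLC3A2, SLC7A5, SLC1A5 and SLC1A4, by 1.86 to 3.75 times in mean TPM. None of the 10 fell by limma after adjustment, and 1, SLC1A3, was lower at an unadjusted p under 0.05. Among all tested genes, 4.6% rose and 4.68% fell. Of the 5 that rose, 3 (SLC7A11, SLC3A2 and SLC7A5) also passed a log2 fold change above 1, which 2.01% of all tested genes did upward. The median log2 fold change of the 10 members was 0.90, against 0.08 over all tested genes. The rutaecarpine libraries lay above all control libraries for 6 members, where 19.3% of all tested genes did so, and below them for 1 member, SLC1A3, where 14% did so. The remaining 3 members, SLC7A1, SLC7A6 and SLC38A2, had overlapping groups.

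**Figure D1:**
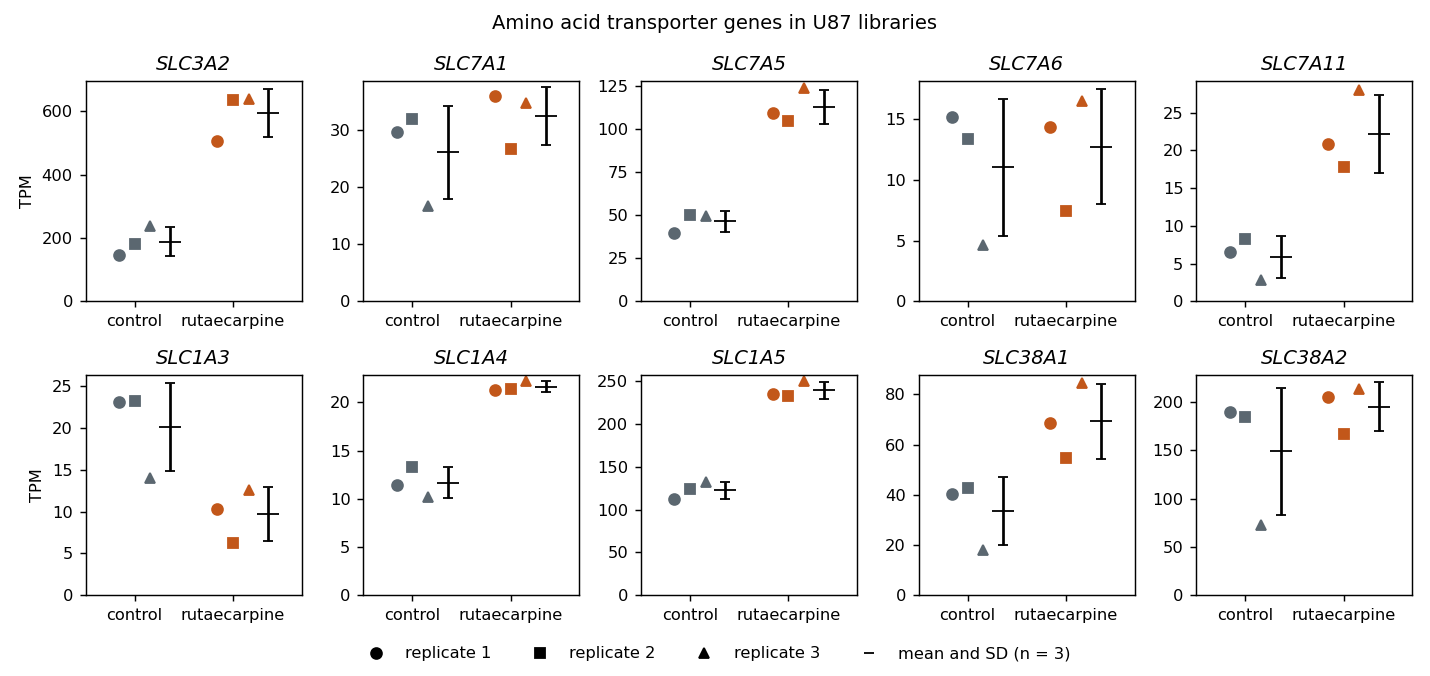
TPM of each transporter gene (vertical axis, from 0) in the 3 control and the 3 rutaecarpine libraries, with the mean and SD of each group (n = 3) beside the points. SLC3A2, SLC7A5, SLC7A11, SLC1A4, SLC1A5 and SLC38A1 are higher in every rutaecarpine library than in any control library, SLC1A3 is lower, and control replicate 3 (triangle) lies lowest of the controls for 7 genes.

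The control libraries were not alike. Control replicate 3 had the lowest TPM of the controls for 7 of the 10 members, and rutaecarpine replicate 2 the lowest of the treated libraries for 8 of the 10. Over the tested genes, the deviation of control replicate 3 from the other controls rose with the GC content of the transcript (Spearman's rho 0.494 across genes) and fell with its length (rho -0.506). The members followed the same order. The ratio of control replicate 3 to the mean of the other 2 controls ran from 0.325 for SLC7A6 to 1.44 for SLC3A2. These ratios all rest on the same control libraries. Over the 10 genes, their rho was 0.794 against GC content and -0.83 against transcript length. For rutaecarpine replicate 2 the same values over the 10 genes were 0.576 and -0.576. Results for the members are therefore also given without control replicate 3 or with each library corrected for trends on length and GC content where that changes a call or moves the value by more than 1.5 times.

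**Figure D2:**
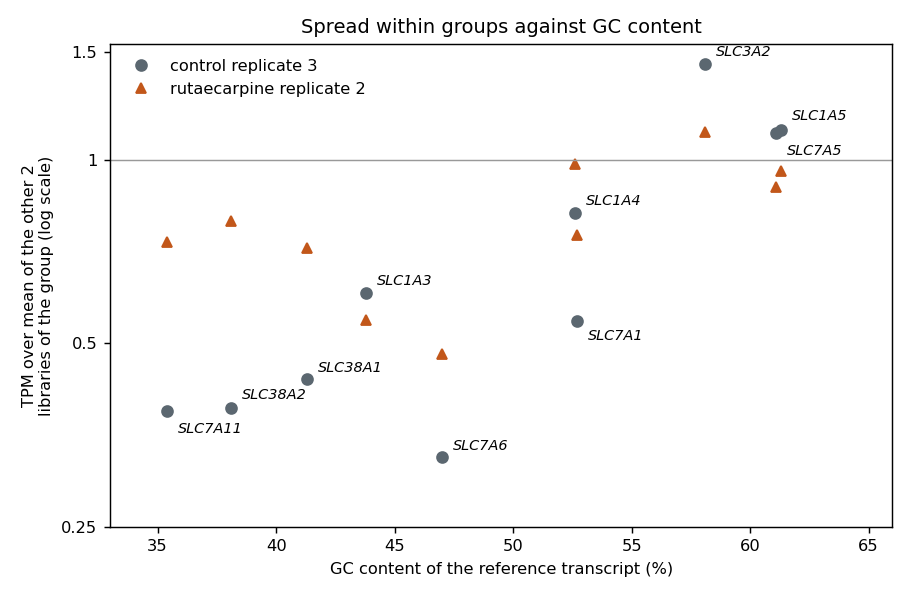
Ratio of the TPM of control replicate 3 (circles) or rutaecarpine replicate 2 (triangles) to the mean of the other 2 libraries of its group (vertical axis, log scale) against the GC content in percent of the reference transcript of each member (horizontal axis). Among the circles SLC7A6 lies lowest at 0.325 and SLC3A2 highest at 1.44, with SLC7A11, at 35.4% GC, at 0.387 and SLC1A5, at 61.3% GC, at 1.12.

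SLC3A2 (ENSG00000168003, chromosome 11, 62856102 to 62888875 on the plus strand of GRCh38), the heavy chain, had the highest mean TPM of the members in both groups, although SLC38A2 was higher in control replicates 1 and 2. Its TPM was 147, 183 and 237 in control replicates 1 to 3 and 506, 635 and 640 in rutaecarpine replicates 1 to 3. Every treated library lay well above every control. The mean rose from 189 ± 45.3 to 594 ± 75.8 TPM (SD, n = 3 per group), or by 1.67 on the log2 scale (SE 0.18, adjusted p = 0.00246 by limma with Benjamini-Hochberg adjustment). SLC3A2 was highest of the controls in control replicate 3, as was SLC1A5, and its log2 fold change without that library was 1.84. It rose in each of the 15 alternative fits. The 5 tested genes whose log2(TPM + 1) followed SLC3A2 most closely over the 6 libraries, members aside, were GDF15, MSC, EIF3D, NDUFAF2 and DDIT3, with Pearson's r from 0.998 to 0.9997. With 6 libraries in 2 groups, this r is a description only.

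SLC7A5 (LAT1, ENSG00000103257, chromosome 16, 87830023 to 87869488, minus strand) exchanges large neutral amino acids such as leucine. Its TPM was 39.6, 50.2 and 49.7 in the controls and 109, 105 and 124 after rutaecarpine. These groups were far apart relative to their spread, and control replicate 3 lay with the other controls. The mean rose from 46.5 ± 5.96 to 113 ± 9.87 TPM (SD, n = 3), or by 1.26 on the log2 scale (SE 0.12, adjusted p = 0.00156 by limma), and SLC7A5 rose in each of the 15 alternative fits.

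SLC7A11 (xCT, ENSG00000151012, chromosome 4, 138164097 to 138242349, minus strand) is the cystine and glutamate exchanger. It was the least abundant member in the controls, at 6.60, 8.29 and 2.88 TPM, and reached 20.8, 17.9 and 27.9 TPM after rutaecarpine. Every treated library lay above every control, but the spread within each group was wide. The mean rose from 5.92 ± 2.77 to 22.2 ± 5.18 TPM (SD, n = 3), or by 1.81 on the log2 scale (SE 0.34, adjusted p = 0.0191 by limma). Without control replicate 3 the log2 fold change was 1.44 (adjusted p = 0.0029 by limma), and with the length and GC correction it was 1.64 (adjusted p = 0.00197). In both of these fits SLC3A2 changed more, by 1.84 and 1.75, so the order of the 2 genes by fold change depends on the setting. The call was lost with control replicate 1 or any 1 of the rutaecarpine libraries left out, with adjusted p of 0.0503 to 0.0925 by limma and log2 fold changes of 1.64 to 1.95. It was also lost with no filter on low TPM (adjusted p = 0.0621) and with the replicate number as a block (adjusted p = 0.0887).

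SLC7A6 (y+LAT2, ENSG00000103064, chromosome 16, 68264516 to 68301823, plus strand), a light chain that exchanges cationic for neutral amino acids, did not change by the test. Its TPM was 15.1, 13.4 and 4.63 in the controls and 14.3, 7.40 and 16.5 after rutaecarpine, so the groups overlapped. The log2 fold change of 0.26 had a 95% interval from -0.81 to 1.33, and turned to -0.22 without control replicate 3. The exons of SLC7A6 share 3371 bp with those of SLC7A6OS on the opposite strand, which had 6.75 to 11.97 TPM, and reads of both genes cannot be told apart unless strand was kept. SLC7A11 and SLC1A5 share 865 and 780 bp of exons with antisense genes that had at most 0.58 and 0.86 TPM. SLC7A1 (CAT1, ENSG00000139514, chromosome 13, 29509410 to 29595688, minus strand), which carries arginine and lysine without a heavy chain, had 29.6, 31.9 and 16.7 TPM in the controls and 36.0, 26.6 and 34.7 TPM after rutaecarpine. Its groups overlapped too, and its log2 fold change of 0.34 (95% interval -0.25 to 0.94) shrank to 0.06 without control replicate 3.

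The heavy chain and its light chains were next compared within each library. SLC3A2 was at 2.39, 2.54 and 4.14 times the summed TPM of SLC7A5, SLC7A6 and SLC7A11 in the controls, and at 3.51, 4.88 and 3.80 times after rutaecarpine. The groups overlapped, because control replicate 3 lay among the treated libraries. The log2 of this ratio differed by 0.46 (SE 0.29, two-sided exact permutation p = 0.3), and 3 libraries against 3 cannot give a p below 0.1. Without control replicate 3 the difference was 0.71. SLC7A5 stood at 0.270, 0.275 and 0.210 of the SLC3A2 level in the controls and at 0.215, 0.165 and 0.193 after rutaecarpine (exact p = 0.2). SLC7A11 stood at 0.0449, 0.0454 and 0.0122 of SLC3A2 in the controls and at 0.0412, 0.0281 and 0.0437 after rutaecarpine (exact p = 1). The difference in the log2 of that last ratio, 0.34, turned to -0.29 without control replicate 3 and reached 0.66 without control replicate 2. SLC7A11 over SLC7A5 was 0.167, 0.165 and 0.0580 in the controls and 0.191, 0.170 and 0.226 after rutaecarpine, with groups that did not overlap and an exact p of 0.1, the smallest that 3 against 3 can give. The difference in its log2, 0.73, shrank to 0.23 without control replicate 3. Adjusted over the 3 ratios of single genes, the p values were 0.3, 1 and 0.3 by Benjamini-Hochberg adjustment of the exact tests. With 0.1 as the smallest p, these tests could not pass the threshold, so they do not tell whether the 3 genes rose by equal factors.

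Among the sodium-coupled SLC1 carriers, SLC1A5 and SLC1A4 rose and SLC1A3 was lower. SLC1A5 (ASCT2, ENSG00000105281, chromosome 19, 46774883 to 46788594, minus strand) is a main entry route for glutamine. Its TPM was 112, 124 and 132 in the controls and 235, 233 and 251 after rutaecarpine, a tight spread in both groups. The mean rose from 123 ± 9.89 to 239.5 ± 9.83 TPM (SD, n = 3), or by 0.96 on the log2 scale (SE 0.09, adjusted p = 0.00122 by limma), the smallest adjusted p among the members. SLC1A5 rose in each of the 15 alternative fits.

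SLC1A4 (ASCT1, ENSG00000115902, chromosome 2, 64988477 to 65023865, plus strand) carries serine, alanine and cysteine. It had 11.5, 13.3 and 10.2 TPM in the controls and 21.2, 21.4 and 22.2 TPM after rutaecarpine. The treated libraries were nearly equal and all lay above the controls. On the log2 scale it rose by 0.85 (SE 0.14, adjusted p = 0.0105 by limma). The call was lost when any 1 rutaecarpine library was left out, with adjusted p of 0.0536 to 0.0668 by limma and log2 fold changes of 0.83 to 0.86, and with the replicate number as a block, at 0.0797.

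SLC1A3 (EAAT1 or GLAST, ENSG00000079215, chromosome 5, 36606355 to 36688334, plus strand), the glutamate transporter of astrocytes, was the only member with a lower mean after rutaecarpine. Its TPM was 23.1, 23.3 and 14.0 in the controls and 10.3, 6.23 and 12.6 after rutaecarpine. Each treated library lay below each control, although control replicate 3 and rutaecarpine replicate 3 came close. The difference of -0.997 on the log2 scale (SE 0.29, 95% interval -1.68 to -0.31) did not pass the test, at an adjusted p of 0.0847 by limma. It passed without control replicate 3 (-1.23, adjusted p = 0.0147) and with the length and GC correction (-1.06, adjusted p = 0.0224).

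SLC38A1 and SLC38A2, which lie near each other on the minus strand of chromosome 12, take up glutamine and other small neutral amino acids with sodium. SLC38A1 (SNAT1, ENSG00000111371, 46183063 to 46270017) had 40.3, 42.7 and 18.1 TPM in the controls and 68.4, 54.7 and 84.5 TPM after rutaecarpine. The treated libraries all lay above the controls, and the low control replicate 3 widened the spread. The difference of 1.09 on the log2 scale (SE 0.33) did not pass the test, at an adjusted p of 0.0953 by limma. Without control replicate 3 the fold change was smaller, 0.70, but the gene passed the test (adjusted p = 0.0259), and with the length and GC correction it was 0.95 (adjusted p = 0.0156).

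SLC38A2 (SNAT2, ENSG00000134294, 46358189 to 46372867), a carrier known to be induced when cells lack amino acids, had 189.6, 184 and 73.1 TPM in the controls and 206, 166 and 214 TPM after rutaecarpine. Apart from control replicate 3 the libraries overlapped. Its log2 fold change of 0.50 (95% interval -0.33 to 1.34, adjusted p = 0.431 by limma) fell to 0.06 without control replicate 3.

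**Figure D3:**
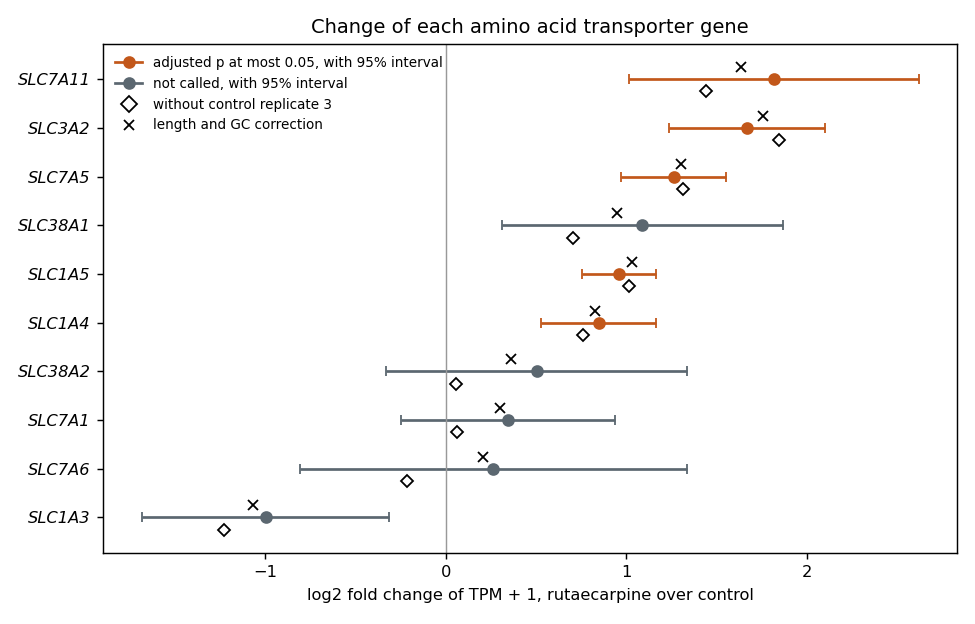
Log2 fold change of TPM + 1, rutaecarpine over control (horizontal axis), of each member, with its 95% interval from limma over 6 libraries. Orange marks the 5 genes that rose; diamonds give the value without control replicate 3 and crosses the value after the length and GC correction, and the values for SLC38A2, SLC7A1 and SLC7A6 without that library lie near 0 or below it.

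The order of the members by level changed with treatment. In the controls the order by mean TPM was SLC3A2 (189), SLC38A2 (149), SLC1A5 (123), SLC7A5 (46.5), SLC38A1 (33.7), SLC7A1 (26.1), SLC1A3 (20.1), SLC1A4 (11.7), SLC7A6 (11.04) and SLC7A11 (5.92). Of the neighbours in that order, SLC1A5 and SLC7A5 did not overlap between libraries, nor did SLC1A3 and SLC1A4, and all other neighbours did. Within every single control library, though, SLC38A1 lay above SLC7A1, SLC7A1 above SLC1A3, and SLC7A6 above SLC7A11. After rutaecarpine the order was SLC3A2 (594), SLC1A5 (239.5), SLC38A2 (195), SLC7A5 (113), SLC38A1 (69.2), SLC7A1 (32.4), SLC7A11 (22.2), SLC1A4 (21.6), SLC7A6 (12.7) and SLC1A3 (9.70). Here SLC7A1 overlapped with SLC7A11, SLC7A11 with SLC1A4, and SLC7A6 with SLC1A3, while the other neighbours were apart. Within every single rutaecarpine library, SLC7A1 lay above SLC7A11 and SLC7A6 above SLC1A3. The summed TPM of the 10 genes was 558 to 674 in the controls and 1227 to 1426 after rutaecarpine. SLC3A2 made up 23.9 to 42.4% of that sum in the controls and 41.3 to 49.9% after rutaecarpine, and control replicate 3 was the control with 42.4%.

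Promoter sequences were available from RefSeq on GRCh38.p14 for 9 of the 10 members, in 17 windows that reach from 250 bases before to 50 bases after a transcription start. A set of 3 short motifs was searched on both strands. TGATGNAA is a core of the element bound by ATF4 with C/EBP factors, TGACNNNGC is the core of the antioxidant response element bound by NFE2L2, and GCGTG is the core of the dioxin response element (DRE) bound by AhR. TGATGNAA was found in 6 of the 17 member windows and in 3.62% of all 35116 windows, TGACNNNGC in 6 member windows and in 13.3% of all, and GCGTG in 11 member windows and in 36.5% of all. Counted by gene, they lay in 6, 6 and 8 of the 9 members, and in 2.81%, 19.6% and 58.4% of the 10461 tested genes that have a window. Members that rose and members that did not held them, and TGATGNAA lay in windows of SLC3A2, SLC1A5, SLC1A4, SLC38A1, SLC7A1 and SLC1A3. The motifs were chosen after their matches were seen, and the members with earlier results of these data known. The counts beside the shares are therefore no test of enrichment. TPM are summed over all starts of a gene, so the start in use is unknown, and a match is only a description of the letters. The stretches below run from 110 bases before to 10 bases after one start of 4 of the genes that rose, each chosen because it holds a TGATGNAA or TGACNNNGC match close to the start, with motif matches in capitals.
SLC3A2, chr11:62881589-62881708, plus strand: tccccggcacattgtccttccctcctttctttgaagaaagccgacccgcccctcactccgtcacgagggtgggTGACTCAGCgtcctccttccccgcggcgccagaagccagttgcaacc
SLC7A5, chr16:87869498-87869617, minus strand: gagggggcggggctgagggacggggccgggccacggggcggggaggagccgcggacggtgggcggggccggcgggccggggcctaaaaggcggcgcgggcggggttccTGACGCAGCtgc
SLC1A5, chr19:46784805-46784924, minus strand: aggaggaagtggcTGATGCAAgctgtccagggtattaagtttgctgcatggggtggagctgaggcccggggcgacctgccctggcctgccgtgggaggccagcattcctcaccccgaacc
SLC1A4, chr2:64989289-64989408, plus strand: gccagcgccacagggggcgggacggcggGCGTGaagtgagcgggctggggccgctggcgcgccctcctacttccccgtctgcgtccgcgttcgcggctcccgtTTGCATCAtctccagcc
In SLC3A2 the TGACNNNGC match starts 37 bases before this start, one of 3 in RefSeq, and its letters TGACTCA are also those of an AP-1 site. In SLC7A5 the match spans the start itself. The TGATGNAA match of SLC1A5 starts 97 bases before one of its 3 starts. SLC1A4 holds the same motif on the other strand, across the start, and a GCGTG match 82 bases before it.

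Other amino acid carriers were examined in the same way, without a test of their difference from the members. A further 40 carriers came from the SLC1, SLC3, SLC7, SLC38, SLC6, SLC36, SLC43 and SLC16 families. They were listed by family, so not all of them lie in the plasma membrane. Of these, 17 were expressed enough to be tested, 1 rose and 1 fell, with a median log2 fold change of 0.24. At an unadjusted p under 0.05, 5 were higher and 2 lower, where 1922 and 1584 of all 14377 tested genes were. The groups lay apart upward for 6 and downward for 2, where 19.3% and 14% of all tested genes did so. The one that rose was SLC6A9, the glycine carrier GLYT1, from 16.4 ± 2.35 to 26.3 ± 2.29 TPM (SD, n = 3), and the one that fell was SLC7A4, from 4.07 ± 0.63 to 1.80 ± 0.08 TPM. Both were named after their values were seen. The other light chains of SLC3A2 were scarce. SLC7A8 had 1.75, 2.10 and 1.86 TPM in the controls and 3.39, 2.55 and 2.91 TPM after rutaecarpine (adjusted p = 0.169 by limma), SLC7A7 had at most 2.30 TPM in any library (adjusted p = 0.112 by limma), and SLC7A10 was listed at 0 in all 6 libraries. On separate lists of lysosomal and mitochondrial amino acid carriers, 3 and 8 were tested and none passed the test by limma. At an unadjusted p under 0.05, 1 and 3 of them were higher, and the median log2 fold changes were 0.29 and 0.22. Over the other 193 tested SLC genes of any substrate, 14 rose and 6 fell, with a median of 0.13, where 4.6% of all tested genes rose and 4.68% fell.

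Many genes listed for the amino acid response rose along with the 5 transporters. The part of ATF4, or of any other stress response that shares these genes, was not tested. This list and those below were chosen with earlier results of these data known. Among all tested genes, 4.6% rose, 2.01% by a log2 fold change above 1, and 4.68% fell. At an unadjusted p under 0.05 by limma, 1922 of the 14377 tested genes were higher and 1584 lower. Of 17 listed genes, all tested, 13 rose, 8 of them by a log2 fold change above 1, and none fell by limma (1, EIF2AK4, was lower at an unadjusted p under 0.05), with a median of 0.94. ATF4 itself had 596, 659 and 641 TPM in the controls and 1139, 1130 and 1319 TPM after rutaecarpine. It rose by 0.92 on the log2 scale (SE 0.09, adjusted p = 0.00155 by limma). ASNS, which makes asparagine from aspartate and glutamine, rose from 60.2 ± 10.4 to 161 ± 10.2 TPM (SD, n = 3). TRIB3, a feedback inhibitor of ATF4, rose most, from 21.6 ± 3.93 to 91.9 ± 13.2 TPM, and SESN2, a leucine sensor upstream of mTORC1, from 30.5 ± 3.54 to 101 ± 12.5 TPM. DDIT3, CHAC1, ATF3, CEBPG and PSAT1 rose by log2 fold changes of 1.59, 1.45, 1.37, 1.05 and 1.04. PHGDH, ATF5, VLDLR and EIF2AK4, which encodes the kinase GCN2 that senses uncharged tRNA, did not pass the test. ATF5 and VLDLR had log2 fold changes of 0.50 and 0.84, and their treated libraries all lay above their controls. EIF2AK4 had a log2 fold change of -0.28, and its treated libraries all lay below its controls. PHGDH had 0.13 and overlapping groups.

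The genes that use what the transporters bring in changed in part. Of 9 genes of cystine use and glutathione synthesis, 4 rose and 5 did not pass the test, with a median of 0.71. CTH and CBS, the enzymes of the route that makes cysteine from methionine, rose from 14.2 ± 2.79 to 50.4 ± 8.59 TPM and from 5.34 ± 1.14 to 14.2 ± 0.83 TPM (SD, n = 3). NFE2L2 had 51.7, 50.5 and 40.0 TPM in the controls and 103, 99.95 and 122 TPM after rutaecarpine (log2 fold change 1.18, adjusted p = 0.00282 by limma), and GCLC, which makes the first step of glutathione synthesis, rose by 0.86 (adjusted p = 0.0483 by limma). GSS, GSR, GPX4 and KEAP1 had log2 fold changes between -0.01 and 0.09. GCLM also did not pass the test (log2 fold change 0.71, adjusted p = 0.114 by limma), but its treated libraries all lay above its controls. Of 9 tested genes of glutamine and glutamate use, 2 rose and 0 fell by limma, with a median of 0.43. The groups lay apart upward for 4 and downward for 2, where 19.3% and 14% of all tested genes did so. The genes that rose were GOT1, an aspartate aminotransferase, and GFPT1, the first enzyme of hexosamine synthesis, which rose from 40.1 ± 13.5 to 88.4 ± 11.3 TPM. GFPT1 kept its call in 7 of the 15 alternative fits.

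Of 20 cytosolic tRNA synthetases, which load amino acids onto tRNA, 10 rose, where 4.6% of all tested genes did so. None fell by limma (1 was lower at an unadjusted p under 0.05), and the median was 0.47. WARS1 was the one above a log2 fold change of 1, from 136 ± 12.03 to 318 ± 18.7 TPM (SD, n = 3), and MARS1 and GARS1 rose by 0.95 and 0.89. KARS1 and QARS1 had log2 fold changes of 0.01 and 0.02. Of 15 genes of amino acid sensing by mTORC1, 3 rose, with a median of 0.08, close to that of all tested genes. These were CASTOR1, an arginine sensor, from 8.87 ± 0.31 to 20.3 ± 0.76 TPM, RPTOR, a subunit of mTORC1, from 22.9 ± 2.47 to 47.8 ± 6.69 TPM, and RRAGA, a Rag GTPase, by a log2 fold change of 0.48. The leucine sensor SESN2, which rose by a log2 fold change of 1.69, was counted with the amino acid response and is not among the 15.

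**Figure D4:**
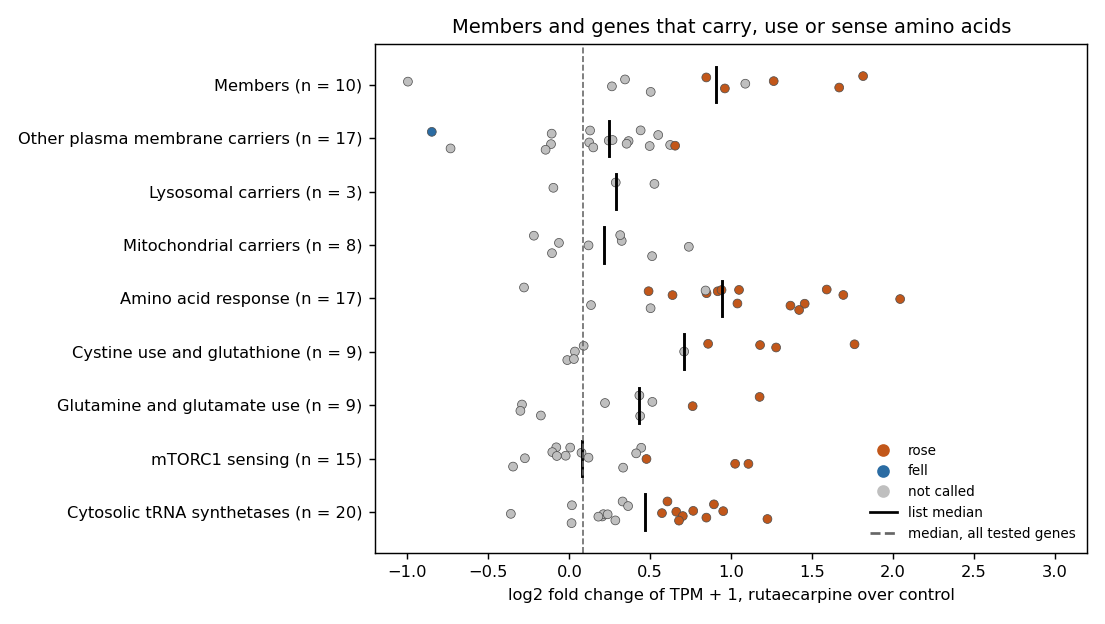
Log2 fold change of TPM + 1, rutaecarpine over control (horizontal axis), of each tested gene of the members and of 8 related groups, with orange for genes that rose, blue for the 1 that fell and grey for those not called. The black bars are group medians, from 0.08 for mTORC1 sensing to 0.94 for the amino acid response, and the dashed line is the median of all tested genes. The group labelled other plasma membrane carriers was listed by gene family, so not all of its genes lie in that membrane.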

How the data were processed

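RNA-Seq libraries of U87 cells treated with rutaecarpine (n = 3) or DMSO (n = 3) were analysed, with groups and replicate numbers taken from the sample titles. The authors used an Illumina NovaSeq instrument, quantified genes with RSEM on GRCh38.p13 (per the submitters' processing notes) and deposited TPM, 1 column per library. The aligner and annotation release are not given in the sources used here. Because TPM keep no read counts, depth is unknown and the count tools in those notes, DESeq2 and edgeR, were not used. The TPM of a library summed to between 990889 and 995734, and 13758 to 14475 genes reached 1 TPM in each. Values were transformed to log2(TPM + 1), filtered to genes that reached 1 TPM in 3 or more libraries, and fitted with limma 3.58.1 in R 4.3.3 (mean-variance trend, two-sided, Benjamini-Hochberg adjustment over all tested genes). The thresholds, an adjusted p of 0.05 and a log2 fold change of 1, follow the study's methods. Ratios between members were compared with exact permutation tests.

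The members and gene lists were chosen with earlier results of these data known, and the motifs after their matches were seen. The genes named are the 10 members, list genes past both thresholds, ATF4, NFE2L2, ASNS and the light chains SLC7A7, SLC7A8 and SLC7A10, and the 5 genes most like SLC3A2. Other list genes were named after their values were seen. List genes not named in the text enter its counts and medians only. Positions, transcript lengths and GC content came from GENCODE release 29 (1 reference transcript per gene) and promoters from RefSeq. The alternatives were median centring, no trend, other filters, a pseudocount of 0.1, the replicate number as a block, library weights, and leaving out each library. The correction on length and GC content (natural splines, 5 degrees of freedom) and leaving out control replicate 3 with rutaecarpine replicate 2 were added after the data were seen. The fit was tested on simulated data with independent noise and the spread of the rutaecarpine libraries. Those data hold no library-wide trend on length or GC content, so they do not test how the fit deals with control replicate 3. Tables and figures were made in Python 3.11.15 with pandas 2.3.3, numpy 2.4.6, scipy 1.17.1 and matplotlib 3.10.9.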

Additional observations from a re-analysis of the deposited data

How the results depend on the processing

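SLC3A2, SLC7A5 and SLC1A5 rose in each of the 15 alternative fits run, SLC1A4 in 11, SLC7A11 in 9 and SLC38A1 in 5, while SLC7A1, SLC7A6 and SLC38A2 passed in none. The number of members that rose, 5 in the reported fit, was 3 with the replicate number as a block and 3 to 6 when 1 library was left out. SLC1A3 fell by the test in 5 of the alternatives, so that 1 member fell after median centring, with library weights, with the length and GC correction and without control replicate 3 and rutaecarpine replicate 2, and 0 to 1 when 1 library was left out. SLC7A6 turned to -0.22 and the log2 ratio of SLC7A11 to SLC3A2 to -0.29 without control replicate 3. The causes were not tested. Leaving out 1 library at a time gave -0.22 to 0.58 for SLC7A6 and -0.29 to 0.66 for that ratio.

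Over all tested genes, the counts of 662 up, 673 down and 505 past a log2 fold change of 1 depended on the setting. The replicate block gave 236 up, 192 down and 318 past the fold threshold, library weights 1935 up and 2027 down, no filter on low TPM 439 down, and an adjusted p of at most 0.001 left 66 up, 30 down and 94 past the fold threshold. Leaving out 1 library gave 278 to 1179 up and 261 to 1487 down, the highest counts without control replicate 3. The list genes called, 34 in the reported fit, numbered 56 with library weights and 24 to 45 when 1 library was left out. Same-numbered libraries did not deviate together (r = 0.116, -0.266 and -0.215 across genes for numbers 1, 2 and 3), so the replicate block rests on a shared number only. Without read counts, the precision of low values such as those of SLC7A11 cannot be given.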
